A study of Mus musculus with 40 samples.

Results

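TRDV1, TRDV2-1 and TRDV2-2, named here as in the tables, are V segments of the T cell receptor delta locus (Trd) that lie between the Trav array and the delta D segments. They are 3 of the 111 V segments listed in the Trd and T cell receptor alpha (Tcra) tables of the series, and they were chosen by name and by having rows in all 4 Trd tables and in 2 of the 4 Tcra tables. Being listed was part of that choice, and a listed row can hold 0 counts, so being present in these tables is not a finding. For the repertoires, EACBE-/- mice were compared with EACBE+/+ mice, and for Hi-C, EACBE-/-Rag1-/- with EACBE+/+Rag1-/- mice, which cannot rearrange receptor genes and were injected with an anti-CD3 antibody. All are labelled C57BL/6 and 4 to 8 weeks old. EACBE is, by the title of the series, a CTCF binding site at Ea, the enhancer that drives Tcra recombination. Per the labels, RNA came from thymocytes of the thymus, with no sort named, and each receptor locus had 2 libraries per genotype made by 5′ RACE, which reads the V and J segments of a receptor transcript without V-specific primers. The tables hold no marker genes, so the labelled tissue could not be checked in them, and the deleted site is not read by them either.

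A delta chain is assembled by joining a V segment to a D segment and a J segment, and an alpha chain by joining a V segment directly to a J segment. The delta D, J and C genes lie inside the alpha locus, between the V segments and the Traj array, so that a V-to-Traj join removes them from the chromosome. Trdv segments are known mainly as delta V segments, but they can also be joined to a Traj segment. The Trd tables give counts of joins to Trdj segments and the Tcra tables counts of joins to Traj segments.

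All 3 segments lie on chromosome 14 and are annotated as V segments in RefSeq GRCm38.p6, the assembly that mm10 is built on. TRDV1 spans 53881612 to 53882217, 4.86 kb after TRAV21/DV12, a V segment shared by the alpha and delta loci. TRDV2-1 spans 53946073 to 53946660 and TRDV2-2 spans 53960993 to 53961602, with 14.3 kb between them. Trdd1, the first delta D segment, begins 231 kb after TRDV1, 167 kb after TRDV2-1 and 152 kb after TRDV2-2. TRAJ58, the first Traj segment listed, begins 275 kb after TRDV1 and 196 kb after TRDV2-2. TRDV4 lies closer to the D segments, with 37.95 kb to Trdd1, and TRDV5 lies on the far side of the constant gene Trdc, where it joins by inversion.

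The Trd tables held 5615 and 47158 counts in the EACBE-/- libraries and 1744 and 28093 counts in the EACBE+/+ libraries, for replicates 1 and 2. Replicate 2 was deeper in both genotypes and listed 103 V segments in EACBE-/- and 88 in EACBE+/+, where replicate 1 listed 22 in EACBE-/- and 18 in EACBE+/+. V segments not listed in all 4 Trd tables held 11.0% of replicate 2 counts in EACBE-/- and 8.81% in EACBE+/+. In replicate 1 they held 0.0534% in EACBE-/- and 0% in EACBE+/+. The totals of the 2 replicates thus cover unlike lists of V segments, and the reason was not tested. In the Tcra tables the Trdv segments are listed in replicate 2 of each genotype, with 163953 counts in all in EACBE-/- and 172388 in EACBE+/+, and not in replicate 1. Whether the replicates are separate mice is not given by the labels, so p-values measure only the spread between these libraries. Shares below are of all counts of a table unless said otherwise, and 95% Wilson intervals cover counting error only. In RNA pooled over many thymocytes, fewer cells with a join and less receptor RNA per cell cannot be told apart.

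The first comparison asked how much of the delta repertoire these upstream segments held with and without EACBE. Together they held a smaller share in EACBE-/- thymus. They took 22.2% and 19.7% of Trd counts in the EACBE-/- libraries, against 45.4% and 36.3% in the EACBE+/+ libraries. The groups did not overlap, and the EACBE-/- mean was 1.95-fold lower, at 20.9% ± 1.75 against 40.8% ± 6.46 (SD, n = 2 each). The difference was 19.9 percentage points, written as -19.9 for EACBE-/- minus EACBE+/+. As a share of the V segments listed in all 4 Trd tables, it was -20.4 points. The two-sided exact permutation test gave p = 0.333, the smallest that 2 libraries per genotype can reach.

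TRDV1, the only member of its subgroup here, showed the larger fold difference. It had 242 counts (4.31%, interval 3.81 to 4.87%) and 1788 counts (3.79%, 3.62 to 3.97%) in the EACBE-/- libraries. In the EACBE+/+ libraries it had 202 counts (11.6%, 10.2 to 13.2%) and 3163 counts (11.3%, 10.9 to 11.6%). Both EACBE-/- libraries lay well under both EACBE+/+ libraries, and the replicates of each genotype lay close together although replicate 2 was much deeper. The mean was 4.05% ± 0.367 in EACBE-/- and 11.4% ± 0.229 in EACBE+/+ (SD, n = 2 each), or 2.82-fold lower in EACBE-/-. By replicate number it was 2.69-fold and 2.97-fold lower.

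TRDV2-2, the most used V segment of the EACBE+/+ delta repertoire, was lower in both EACBE-/- libraries as well. It had 991 counts (17.6%, interval 16.7 to 18.7%) and 7381 counts (15.7%, 15.3 to 15.98%) in EACBE-/-. In EACBE+/+ it had 584 counts (33.5%, 31.3 to 35.7%) and 6983 counts (24.9%, 24.4 to 25.4%). The groups did not overlap, but the EACBE+/+ replicates differed by more than their counting error. The mean was 16.7% ± 1.41 in EACBE-/- and 29.2% ± 6.10 in EACBE+/+ (SD, n = 2 each), or 1.75-fold lower. In rank, TRDV2-2 was first and second of the V segments in the EACBE-/- libraries and first in both EACBE+/+ libraries, and TRDV1 was number 8 in both EACBE-/- libraries and number 3 and 4 in the EACBE+/+ libraries.

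TRDV2-1, a segment of the same subgroup as TRDV2-2, was rare in every library and showed no steady difference. It had 12 counts (0.214%) and 123 counts (0.261%) in EACBE-/-, and 6 counts (0.344%) and 45 counts (0.160%) in EACBE+/+. Replicate 1 was lower in EACBE-/- and replicate 2 higher, so the groups overlap. The mean was 0.237% ± 0.0333 in EACBE-/- and 0.252% ± 0.130 in EACBE+/+ (SD, n = 2 each). The intervals of the replicate 1 libraries, 0.122 to 0.373% in EACBE-/- and 0.158 to 0.749% in EACBE+/+, leave a difference of either sign undetectable at that depth. The sources used here do not give how counting treated reads that match both TRDV2 segments, so the TRDV2-1 values are uncertain.

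**Figure D1:**
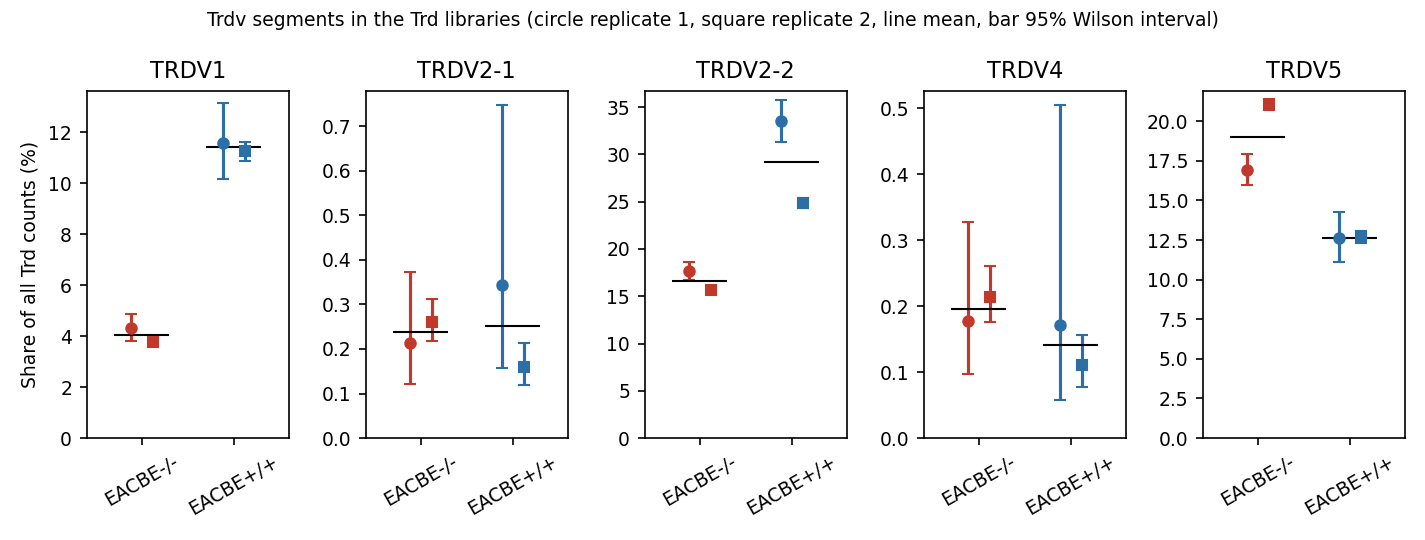
Share of all Trd counts (%, each panel with its own axis from 0) of the 5 listed Trdv segments, by genotype. Circles are replicate 1, squares replicate 2, lines the mean of 2 libraries and bars the 95% Wilson interval. TRDV1 lies at 3.79 to 4.31% in EACBE-/- and 11.3 to 11.6% in EACBE+/+, and TRDV2-1 overlaps between the genotypes.

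In edgeR's quasi-likelihood test over the 18 V segments listed in all 4 Trd tables, 0 passed an adjusted p of 0.05 (0% called), 3 had an unadjusted p below 0.05, and DESeq2 called 0 with 1 below 0.05 unadjusted. Those 3 were TRDV1, TRDV2-2 and TRDV5. TRDV1 missed the threshold narrowly, at a log2 change of -1.50 (SE 0.203, adjusted p = 0.0511 in edgeR), and was lower in both replicates. It passed when library totals were taken over these 18 segments alone, where the estimate was -1.48 (adjusted p = 0.0468 in edgeR). Over all alternatives its adjusted p ran from 1.2e-05 to 0.617. TRDV2-2 had a log2 change of -0.81 (SE 0.208, adjusted p = 0.200 in edgeR), and TRDV2-1 one of -0.015 (SE 0.800, adjusted p = 0.991 in edgeR). Each edgeR SE here is the size of the log2 change divided by the square root of the test's F statistic. All TRDV2-1 counts were joins to TRDJ1, and for that pair the SE was 0.569, so its SE is approximate. Read as such, it leaves room for a TRDV2-1 change in either direction of a size like that of TRDV2-2.

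The genotypes did not overlap for 2 of 18 segments in the direction lower in EACBE-/- (11.1%), and these were TRDV1 and TRDV2-2. They did not overlap in the direction higher in EACBE-/- for 4 of 18 (22.2%): TRDV4, TRDV5, and 2 of the 4 listed TRAV15-DV6 segments, TRAV15-1-DV6-1 and TRAV15-2-DV6-2. For TRDV4 this rests on 10 counts in EACBE-/- replicate 1 and 3 counts in EACBE+/+ replicate 1. The other TRAV15-DV6 segments overlap between genotypes but were higher in EACBE-/- within each replicate number. TRAV15D-1-DV6D-1 took 14.6% and 2.69% in EACBE-/-, against 8.14% and 2.00% in EACBE+/+, and TRAV15D-2-DV6D-2 took 10.7% and 4.08% in EACBE-/-, against 6.02% and 2.27% in EACBE+/+. Of the 15 delta V segments, meaning those with Trdv or dv in their name, 0 passed the test. Their log2 changes were above 0 for 9 and below 0 for 6, with a median of 0.26, beside a median of 0.06 over all 18 segments. The 15 include the 3 upstream segments. Without these, 9 of 12 were above 0 and 3 below, with a median of 0.41. Shares of a table have a fixed total, so a smaller share of one segment raises the shares of others by itself.

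Ratios between segments do not depend on that total. TRDV5, the inverted V segment next to Trdc, had 951 counts (16.9%) and 9926 counts (21.05%) in EACBE-/- and 220 counts (12.6%) and 3559 counts (12.7%) in EACBE+/+, at a log2 change of 0.59 (SE 0.179, adjusted p = 0.217 in edgeR). Per count of TRDV5 there were 0.254 and 0.180 counts of TRDV1 in EACBE-/-, against 0.918 and 0.889 in EACBE+/+, a ratio 4.16-fold lower. For TRDV2-2 the ratio to TRDV5 was 1.04 and 0.744 in EACBE-/- and 2.65 and 1.96 in EACBE+/+, or 2.59-fold lower. Within the upstream segments, TRDV1 counts per TRDV2-2 count were 0.244 and 0.242 in EACBE-/- and 0.346 and 0.453 in EACBE+/+. That ratio averaged 0.243 ± 0.00138 in EACBE-/- and 0.399 ± 0.0757 in EACBE+/+ (SD, n = 2 each), so TRDV1 was 1.64-fold lower relative to TRDV2-2 as well. The difference of -0.156 in that ratio was -0.103 without EACBE+/+ replicate 2. These ratios were chosen after their values were seen and were not tested beyond the exact permutation value, p = 0.333, the smallest that 2 against 2 allows.

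TRDV4, the nearest listed V segment on the Trav side of the D segments, had 10 and 101 counts in EACBE-/- (0.178% and 0.214%). In EACBE+/+ it had 3 and 31 counts (0.172% and 0.110%). Its replicate 1 intervals overlap widely, at 0.0968 to 0.328% in EACBE-/- and 0.0585 to 0.505% in EACBE+/+. TRAV21/DV12, the neighbour of TRDV1, took 4.35% and 12.0% in EACBE-/- and 6.19% and 10.6% in EACBE+/+. Its groups overlap and its replicates lie far apart, unlike those of TRDV1. Its log2 change was -0.041 (SE 0.637, adjusted p = 0.991 in edgeR).

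By the pattern of log2 shares over the 4 Trd libraries, TRDV2-2 was the segment most like TRDV1, with a mean absolute difference of 0.350 after each segment was centred, and TRAV13-4-DV7 came next at 0.735. TRDV1 was also the segment most like TRDV2-2, followed by TRAV13-4-DV7 at 0.385. For TRDV2-1 the nearest were TRDV4, at 0.234, and TRAV16D-DV11, at 0.308. These are descriptions over 4 libraries, and a small value can come from segments that all varied little.

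The J partners in Trd were compared next. Nearly all joins used TRDJ1, the first delta J segment, and few used TRDJ2, the other listed one. TRDV1 had 4 and 10 joins to TRDJ2 in EACBE-/- (1.65% and 0.559% of its counts) and 0 and 36 in EACBE+/+ (0% and 1.14%), where 0 of 202 counts allows a share of up to 1.49% by the limit of 3 counts and 1.87% by the Wilson interval. TRDV2-2 had 14 and 98 joins to TRDJ2 in EACBE-/- (1.41% and 1.33%) and 8 and 73 in EACBE+/+ (1.37% and 1.05%). TRDV2-1 had 0 joins to TRDJ2 in all 4 libraries, and in the deepest of them, with 123 counts, the limit of 3 counts allows 2.44% and the Wilson interval 3.03%.

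Over the 3 segments, TRDJ1 took 98.6% and 98.8% of joins in EACBE-/- and 98.99% and 98.9% in EACBE+/+. The difference of -0.264 points had an exact permutation p of 0.333, the smallest possible, and ran from -0.122 points without EACBE-/- replicate 1 to -0.406 points without EACBE-/- replicate 2. Of the other V segments of the same tables, TRDJ1 took 99.3% and 99.2% in EACBE-/- and 99.2% and 99.1% in EACBE+/+. Summed, the upstream segments lay under the others in 4 of 4 libraries, with a mean difference of -0.361 points (two-sided exact sign-flip permutation p = 0.125, the smallest that 4 libraries allow). By segment, TRDV2-2 lay under the others in all 4 libraries, whereas TRDV2-1 was at 100% TRDJ1 in all 4. TRDV1 was at 98.3% and 99.4% in EACBE-/- and at 100% and 98.9% in EACBE+/+, above the others in EACBE-/- replicate 2 and EACBE+/+ replicate 1. For the sum, the difference without EACBE-/- replicate 1 was -0.236 points, and without TRDV4 and TRDV5 among the others -0.225 points, with an exact permutation p of 0.375.

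In edgeR's test of 23 Trd V-J pairs, 0 passed an adjusted p of 0.05 (0% called) and 3 had an unadjusted p below 0.05. DESeq2, run without edgeR's count filter and with its own scaling, tested 35 pairs. It called 0, with 1 below 0.05 unadjusted. The pair of TRDV1 with TRDJ1 had a log2 change of -1.50 (SE 0.213, adjusted p = 0.0628 in edgeR). It passed with TMM scaling factors, at -1.83 (adjusted p = 0.0358 in edgeR), under which the median change of all pairs was -0.27 rather than -0.02. The pair of TRDV1 with TRDJ2 had a log2 change of -1.04 with an SE of 1.36, so joins to TRDJ2 were too few to compare. TRDV2-2 had log2 changes of -0.81 with TRDJ1 (SE 0.208, adjusted p = 0.228 in edgeR) and -0.61 with TRDJ2 (SE 0.700, adjusted p = 0.999).

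The Tcra tables show the same segments joined to Traj segments instead. One library per genotype lists them, so the values below have no replicate check and no test. There they were rare, at 3075 counts (1.88%, interval 1.81 to 1.94%) in EACBE-/- and 3444 counts (2.00%, 1.93 to 2.06%) in EACBE+/+, a difference of -0.122 points (interval -0.215 to -0.0291). The sign of that difference turned, to 0.173 points, when each V-J pair with counts was counted once. That setting gives a share of pairs and not of joins. The order of the segments differed from that in Trd: TRDV1 led, with 65.5% of the counts of the 3 segments in EACBE-/- and 76.3% in EACBE+/+, whereas in Trd it held 19.4% and 19.2% in EACBE-/- and 25.5% and 31.0% in EACBE+/+.

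TRDV1 had 2015 counts in the EACBE-/- Tcra library (1.23%, interval 1.18 to 1.28%) and 2629 in the EACBE+/+ one (1.53%, 1.47 to 1.58%), or 1.24-fold lower. TRDV2-2 had 967 counts (0.590%, 0.554 to 0.628%) in EACBE-/- and 702 (0.407%, 0.378 to 0.438%) in EACBE+/+, or 1.45-fold higher. TRDV2-1 had 93 counts (0.0567%) in EACBE-/- and 113 (0.0655%) in EACBE+/+, with overlapping intervals. TRDV2-2 thus stood lower in EACBE-/- in both Trd replicates and higher in the single pair of Tcra libraries. A higher Tcra share was not limited to TRDV2-2. TRAV21/DV12, whose Trd groups overlap, took 3.15% in EACBE-/- and 2.34% in EACBE+/+, or 1.35-fold higher. The ratio of TRDV1 to TRDV2-2 was lower in EACBE-/- in Tcra too, at 2.08 against 3.75.

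Joins of the upstream segments lay mostly in the 5′ part of the Traj array, which is the part nearest to the V segments. Traj segments numbered 42 and above (called 5′ here) took 81.2% of their counts in EACBE-/- (interval 79.8 to 82.5%) and 84.4% in EACBE+/+ (83.2 to 85.6%). All the other V segments of the same tables used them for 37.7% in EACBE-/- and 30.6% in EACBE+/+. TRAJ21 and below (3′) took 1.76% of upstream joins in EACBE-/- and 1.89% in EACBE+/+, beside 17.1% of the joins of other V segments in EACBE-/- and 30.2% in EACBE+/+.

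By single segment, the 5′ share was 81.1% for TRDV1, 76.3% for TRDV2-1 and 81.8% for TRDV2-2 in EACBE-/-. In EACBE+/+ it was 84.6% for TRDV1, 75.2% for TRDV2-1 and 85.0% for TRDV2-2. The intervals of the difference held 0 for both TRDV2 segments, at -6.78 to 0.405 points for TRDV2-2 and -10.8 to 12.6 points for TRDV2-1, and ran from -5.75 to -1.36 points for TRDV1. Among V segments with at least 100 counts, TRDV2-2 and TRDV1 were number 2 and 3 of 98 in EACBE-/- and number 1 and 3 of 104 in EACBE+/+. The remaining place among the first 3 was held by TRAV21/DV12 in both, at 82.6% in EACBE-/- and 84.8% in EACBE+/+. TRAV19 was number 4 in both, at 73.3% in EACBE-/- and 80.8% in EACBE+/+, where TRDV2-1 was number 5. A high 5′ share was thus not limited to the upstream segments. The median over V segments was 29.6% in EACBE-/- and 22.97% in EACBE+/+.

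**Figure D2:**
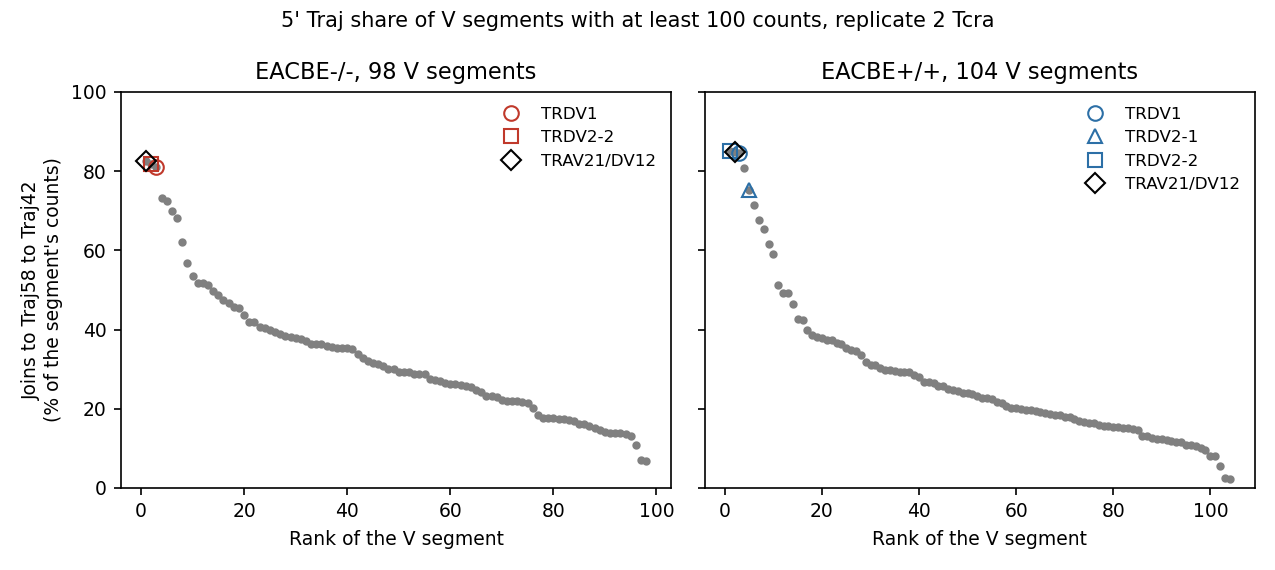
Share of each V segment's joins that used TRAJ58 to TRAJ42 (y axis, % of the segment's counts) against its rank (x axis), in the replicate 2 Tcra libraries of EACBE-/- (left) and EACBE+/+ (right). Grey points are V segments with at least 100 counts and open symbols are the named ones; TRDV2-1 has 93 counts in EACBE-/- and is not drawn there. TRDV1, TRDV2-2 and TRAV21/DV12 hold the 3 highest places in both libraries.

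For TRDV1 and TRDV2-2, the Traj segment at which the EACBE-/- and EACBE+/+ libraries stood furthest apart was TRAJ58. For the upstream segments together, the EACBE-/- minus EACBE+/+ difference was -3.24 points over the 5′ Traj segments and 3.37 points over the middle ones (TRAJ41 to TRAJ22). The 5′ difference was -1.53 points with each V-J pair counted once and -5.36 points with the 5′ bound at TRAJ48. TRAJ58, TRAJ57 and TRAJ56, the first 3 Traj segments listed, together took 36.2% of the joins of the upstream segments in EACBE-/- (interval 34.5 to 37.9%) and 45.0% in EACBE+/+ (43.4 to 46.7%), a difference of -8.87 points (-11.2 to -6.49). For TRDV1 the values were 34.6% in EACBE-/- and 44.4% in EACBE+/+, and for TRDV2-2 they were 39.4% in EACBE-/- and 48.4% in EACBE+/+. TRDV2-1 gave 36.6% in EACBE-/- and 38.9% in EACBE+/+, with an interval of the difference from -15.3 to 10.8 points. These intervals cover counting error within 1 library per genotype, so none of these differences can be set against a spread between libraries. TRAV21/DV12 showed a difference of like size, -9.09 points (-11.1 to -7.08). All other V segments together, TRAV21/DV12 among them, used these 3 Traj segments for 8.75% in EACBE-/- and 8.30% in EACBE+/+, a difference of 0.449 points in the other direction.

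Most of the difference in TRDV1 lay in TRAJ58. It was the partner in 311 of the TRDV1 joins in EACBE-/- (15.4%, interval 13.9 to 17.1%) and in 606 in EACBE+/+ (23.1%, 21.5 to 24.7%). TRAJ57 took 9.73% of TRDV1 joins in EACBE-/- and 11.8% in EACBE+/+, and TRAJ56 took 9.43% in EACBE-/- and 9.51% in EACBE+/+. TRAJ49 took 9.43% in EACBE-/- and 8.33% in EACBE+/+, and TRAJ45 took 6.05% in EACBE-/- and 7.11% in EACBE+/+. These 5 were the most used partners of TRDV1 in both libraries. In all, TRDV1 was joined to 42 of the 43 listed Traj segments in EACBE-/- and 41 in EACBE+/+.

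For TRDV2-2, TRAJ58 was the partner in 158 joins in EACBE-/- (16.3%, 14.1 to 18.8%) and 165 in EACBE+/+ (23.5%, 20.5 to 26.8%). TRAJ57 took 16.0% in EACBE-/- and 16.1% in EACBE+/+, and so did not differ beyond its interval. TRAJ49 took 8.69% and TRAJ56 7.03% in EACBE-/-, against 6.84% and 8.83% in EACBE+/+. TRAJ37, in the middle of the array, was among the first 5 partners in EACBE-/- alone, at 68 joins (7.03%, 5.58 to 8.82%) against 33 in EACBE+/+ (4.70%, 3.37 to 6.53%). TRAJ50, among the first 5 in EACBE+/+ alone, took 67 joins in EACBE-/- (6.93%), 1 fewer than TRAJ37, and 39 in EACBE+/+ (5.56%). TRDV2-1 joined TRAJ56 most often in EACBE-/- (14 joins), and TRAJ58 and TRAJ57 in EACBE+/+ (16 joins each).

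**Figure D3:**
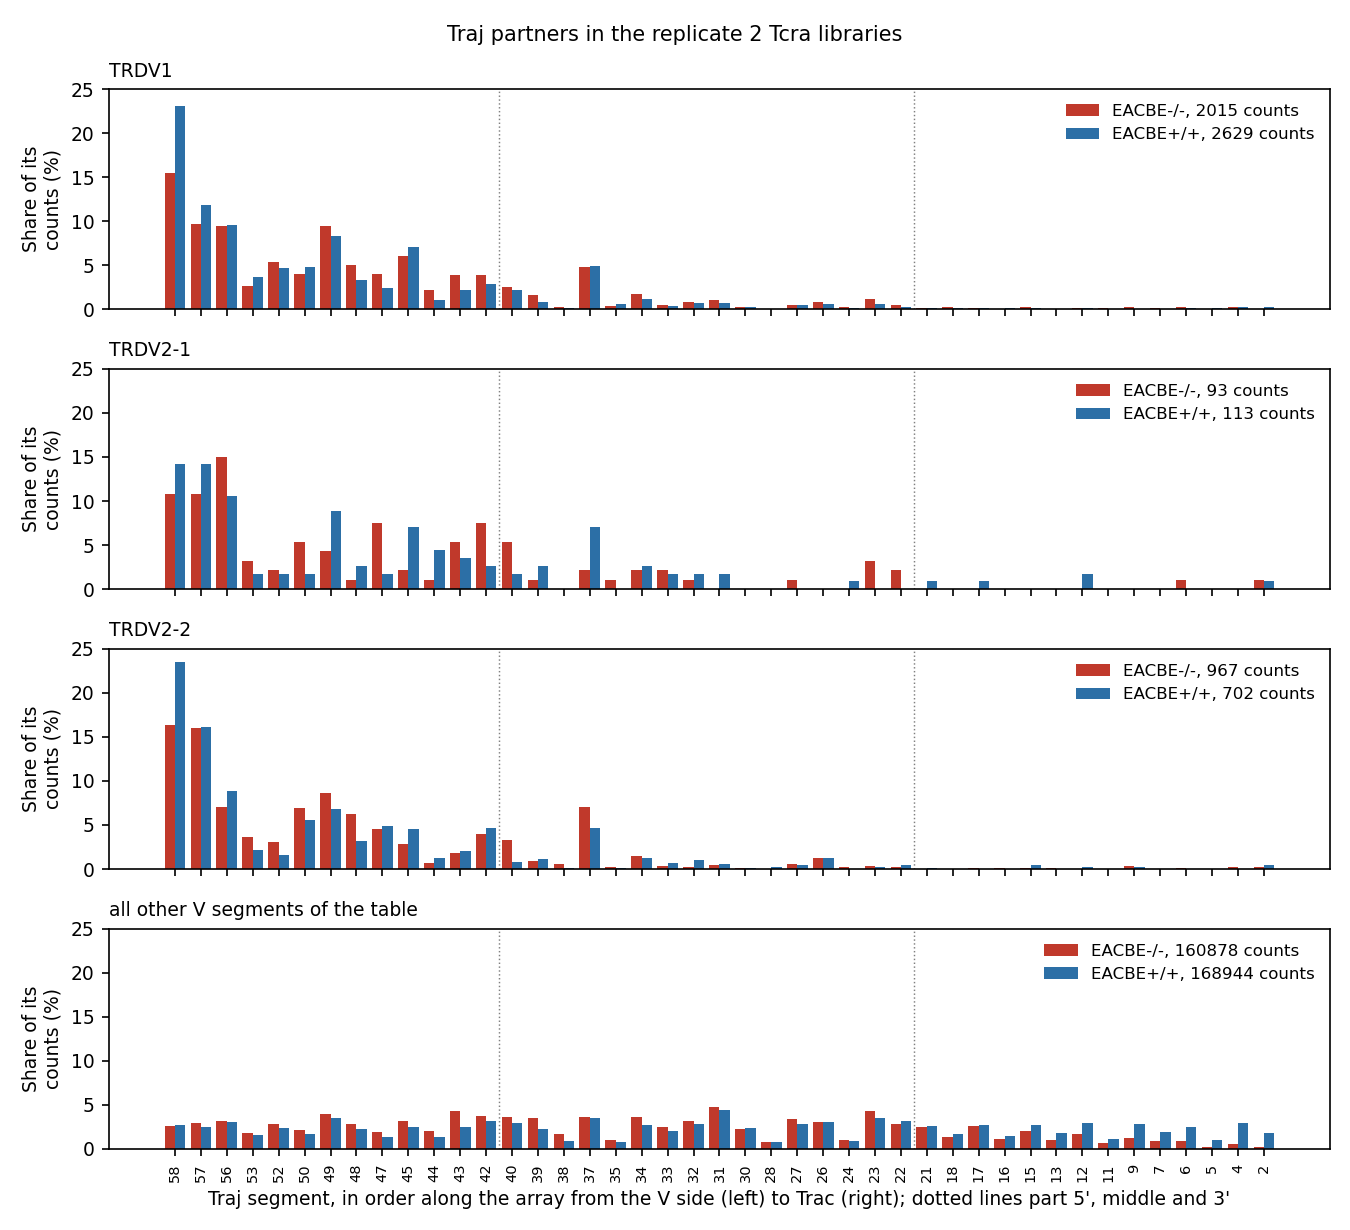
Share of each V segment's own joins (y axis, %) that used each of the 43 listed Traj segments (x axis, in order along the array), in the replicate 2 Tcra libraries, EACBE-/- in red and EACBE+/+ in blue, 1 library each. The upper 3 panels peak at TRAJ58 to TRAJ56, where TRAJ58 took 15.4% of TRDV1 joins in EACBE-/- and 23.1% in EACBE+/+, and the panel of all other V segments has no such peak.

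Seen from the Traj side, the upstream segments supplied 479 of 4742 TRAJ58 joins in EACBE-/- (10.1%, interval 9.28 to 11.0%) and 787 of 5401 in EACBE+/+ (14.6%, 13.7 to 15.5%). TRDV1 was the second most used V segment with TRAJ58 in both libraries, after TRAV21/DV12. With TRAJ57 it ranked number 8 in EACBE-/- and number 3 in EACBE+/+, and with TRAJ56 number 10 in EACBE-/- and number 4 in EACBE+/+. At the far end, TRAJ2 had 4 joins with the upstream segments of 352 in EACBE-/- (1.14%, 0.443 to 2.88%) and 10 of 3165 in EACBE+/+ (0.316%, 0.172 to 0.581%). That share was higher in EACBE-/-, opposite to TRAJ58, but its intervals overlap. TRAJ2 joins were thus rarer overall in EACBE-/-, and its joins with the upstream segments were few in both.

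The Hi-C lists give insulation boundaries, bins at which contacts between the 2 flanks are depleted, on chromosome 14 for thymocytes of anti-CD3-treated EACBE-/-Rag1-/- and EACBE+/+Rag1-/- mice (C57BL/6), 1 library each and so with no test. No listed bin overlapped any of the 3 segments in either genotype. On the side of the D segments, the nearest bin was the same in both lists, 54060001 to 54080000 (mm10), 178 kb from TRDV1, 113 kb from TRDV2-1 and 98.4 kb from TRDV2-2, and TRDV4 lies in it. On the Trav side, the nearest bin was 53700001 to 53720000 in the EACBE-/- list, 162 kb from TRDV1, and 53840001 to 53860000 in the EACBE+/+ list, 21.6 kb from TRDV1. The EACBE+/+ list held another bin, 53800001 to 53820000, that contains TRAV17. The EACBE-/- list held neither of these, although it was the longer list, with 533 bins on the chromosome against 400 in the EACBE+/+ list. The EACBE+/+ bins nearest to TRDV1 and at TRAV17 each had a boundary score of 0.324. That was the lowest score of that list in the region drawn, beside 0.437 for its bin at TRDV4. These libraries are from mice that cannot recombine their receptor genes, so they are other animals than those of the repertoires.

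**Figure D4:**
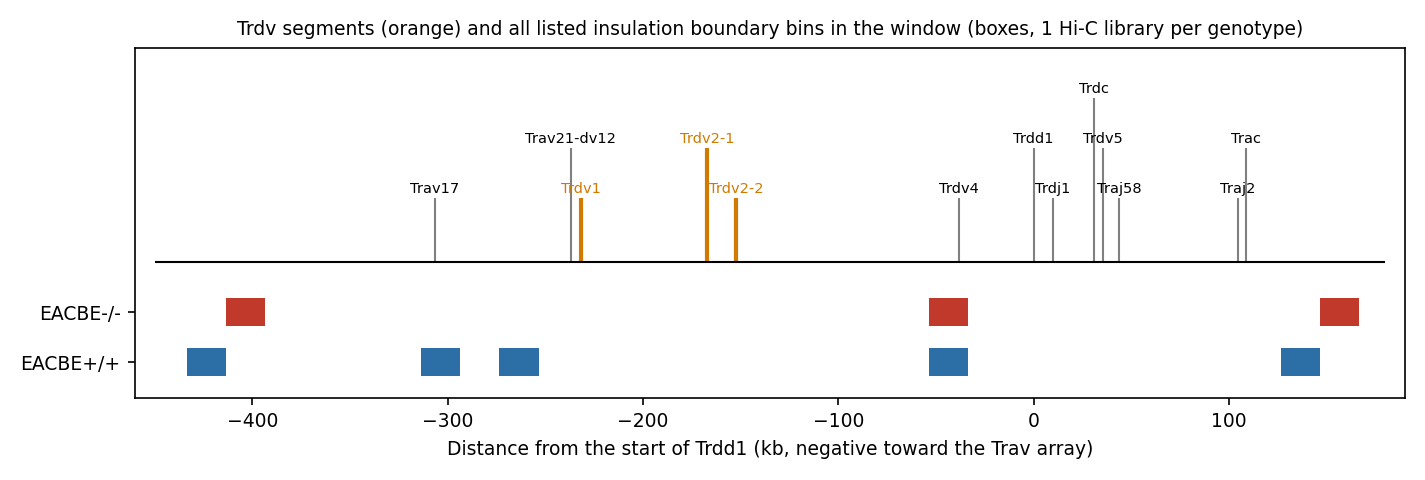
Positions of the 3 segments (orange) and of landmark genes (grey) as distance from the start of Trdd1 (x axis, kb), with every listed insulation boundary bin of the window as a box, EACBE-/- above EACBE+/+, 1 Hi-C library each. The bin at TRDV4 is in both lists, and the nearest bin on the Trav side of TRDV1 is 162 kb away in EACBE-/- and 21.6 kb away in EACBE+/+.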

How the data were processed

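Per the labels' protocols, cDNA for the repertoires was made with oligo(dT) and a template-switched 5′ RACE adapter. The authors deposited 1 table of whole-number counts per library, by V-J pair. The sources used here do not give the tool behind the assignment, nor the unit counted (reads or distinct receptors). If counts are reads, 1 abundant transcript weighs as much as many receptors. The deposited Hi-C lists give bins of 20000 bases with a boundary score, for mm10 and each library on its own, per the file headers. The score entered no comparison between genotypes. Per the submitters' processing notes, the tools of the series include HiC-Pro 2.11.1, Juicer 1.13.02, Bowtie2 (2.3.4.3 and 2.20.8) and cutadapt 0.4.4. Of 40 samples, 10 were used: 8 Trd and Tcra libraries and 2 Hi-C libraries. The other 30 (Trb, chromatin immunoprecipitation and 4C) were not used here.

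Counts per V segment (summed over Trdj) and per V-J pair were tested with edgeR 4.0.16 (glmQLFit, glmQLFTest, R 4.3.3) over segments listed in all 4 Trd tables, scaled by table totals without TMM factors, with filterByExpr at its defaults of 10 and 15 counts, and Benjamini-Hochberg adjustment over all features tested, at 0.05. Per-library shares were compared by exact permutation, and likeness used log2(share + 0.01%). Alternatives tried were DESeq2 1.42.0 (with its own scaling and without filterByExpr), TMM factors, other totals, no filter, a replicate block, each library left out, other denominators and other Traj bounds. The wider set of V segments and the ratio of TRDV1 to TRDV2-2 were added after the data were seen. The segments, lists and rules were chosen with earlier results of these data known. The text names the 3 segments, all Trdj segments, up to 5 leading Traj partners per segment and library with TRAJ58, TRAJ57, TRAJ56 and TRAJ2, TRDV4 and TRDV5, and the 2 most alike segments. Outside that rule, TRAV21/DV12, TRAV19, the TRAV15-DV6 segments and TRAV17 were named after their values were seen. Segment names were matched to RefSeq by symbol, 3 of 3. Other steps ran in Python 3.11.15 (scipy 1.17.1, pandas 2.3.3, numpy 2.4.6), with figures by matplotlib 3.10.9.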

Additional observations from a re-analysis of the deposited data

Results flagged for a closer look

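TRDV2-2 had differences of opposite sign in the delta and the alpha tables. In Trd its EACBE-/- minus EACBE+/+ difference was -15.8 points in replicate 1 and -9.21 points in replicate 2, whereas in the replicate 2 Tcra libraries it was 0.183 points (95% interval of counting error 0.135 to 0.231), at 0.590% in EACBE-/- and 0.407% in EACBE+/+. The Tcra value rests on 1 library per genotype and the difference between the loci was not tested. TRAV21/DV12, whose Trd groups overlap, was higher in that Tcra pair too, at 3.15% in EACBE-/- and 2.34% in EACBE+/+. TRDV1 was lower in EACBE-/- in both Trd replicates and in the Tcra pair.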

How the results depend on the processing

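The log2 change of TRDV1 in Trd stayed negative in all 10 alternatives, from -1.62 to -1.41, and that of TRDV2-2 in all 10, from -1.01 to -0.58. Replicate numbers are shared by the labels with no statement of what they mark. Same-numbered libraries deviated together (Pearson r = 0.854 across 18 segments, which are not independent), but with 2 pairs this is a hint only. With the replicate block, 3 V segments passed (TRDV1 at a log2 change of -1.51 with adjusted p = 1.2e-05 in edgeR, TRAV15D-1-DV6D-1 and TRAV15D-2-DV6D-2) and 2 V-J pairs. The blocked difference of the summed share, -19.9 points, equals the unblocked one by arithmetic and so is no check. With totals over segments listed in all 4 tables, 1 V segment passed, TRDV1 (log2 change -1.48), and with TMM factors 1 V-J pair did. TRDV2-1 had a log2 change of -0.015 and turned to 0.48 with the block and to 0.027 with those totals, and ran from -0.53 to 0.57 over the fits without 1 library, being positive without EACBE-/- replicate 1 (0.14) or EACBE+/+ replicate 1; the cause was not tested. With each V-J pair counted once, the Tcra difference of the summed share was 0.173 instead of -0.122 points, and with the 5′ bound at TRAJ48 the 5′ difference was -5.36 instead of -3.24 points (-1.53 with each V-J pair counted once); the cause was not tested. The difference of the summed Trd share ran from -24.5 to -15.3 points when 1 library was left out. Leaving out 1 library called 0 segments and 0 pairs each time; a lone library was then assumed to vary like the other group. Depth limits TRDV2-1, which had 6 and 12 counts in the replicate 1 libraries, and all joins to TRDJ2.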
